A study of Mus musculus with 6 samples.

Results

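Genes that bring fatty acids into muscle, activate them, carry them into mitochondria and oxidise them were compared between 2 groups of mouse calf muscle. The module holds 39 genes, taken by gene symbol from the deposited count table of 54532 genes, and it also includes 2 genes of ketone body use. Each symbol matched a single row, and all 39 genes were among the 14973 that passed the filter on low counts. The rule that picks the rows uses gene names only.

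RNA from whole gastrocnemius was sequenced in 6 libraries, 3 per group. All mice were C57BL/6J and 3-month-old, carried Mck cre, and drank water with 0.2% doxycycline from an age of 4 weeks. The Ctrl group carried Mck cre alone, and the MP group carried Mck cre and a transgene, Tg Glut1-Hk2-Pfkfb3, named for a glucose transporter, a hexokinase and a regulator of glycolysis. The muscle creatine kinase promoter drives Cre in skeletal and heart muscle, so control mice shared both the driver and the drug.

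Long-chain fatty acids reach muscle on albumin or are freed from lipoproteins by lipoprotein lipase in the capillaries. They cross the membrane with the help of CD36 and fatty acid transport proteins, bind small carrier proteins in the cytosol, and are joined to coenzyme A. Carnitine palmitoyltransferases move the acyl groups into mitochondria, where rounds of beta-oxidation shorten them to acetyl-CoA and pass electrons to the electron transfer flavoprotein. Malonyl-CoA, made from glucose-derived carbon, blocks the first carnitine step, which links the pathway to glucose use.

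Library totals lay between 19546456 and 24665024 counts, and a gene with 3 counts in a library sat between 0.120 and 0.145 CPM (read counts scaled to library size, by TMM). The genes that name the transgene did not separate the labels in the labelled direction. Pfkfb3 was lower in every MP library, with a log2 fold change of -1.52 ± 0.57 (SE) and an adjusted p of 0.196 by edgeR. Hk2 gave 0.44 ± 0.27 and Slc2a1, the gene of Glut1, gave -0.63 ± 0.31, with adjusted p-values of 0.381 and 0.290 by edgeR. Whether the transgene's own sequence would be counted at these mouse genes is not given in the sources used here. Directions below are therefore those of the libraries labelled MP against the libraries labelled Ctrl.

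A pair of libraries stood apart. Ctrl replicate 1 held lymphocyte transcripts, with 9 B cell markers summing to 554 CPM against 6.98 to 56.8 CPM elsewhere and 12 T and NK cell markers to 167 CPM against 1.01 to 6.59 CPM. MP replicate 1 held the highest sum of 13 endothelial markers, 1008 CPM against 463 to 612 CPM in the other 5 libraries. The 12 skeletal muscle fibre markers summed to 108900 to 155300 CPM and were all detected. Results below are given with all 6 libraries and, where a call or value moves, without these.

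With all 6 libraries, 0 of the 39 members passed the test (edgeR quasi-likelihood, adjusted p under 0.05 over all 14973 genes). Across all genes 194 passed, or 1.3%, with 118 higher and 76 lower in MP. At an unadjusted p under 0.05 there were 5 members, 4 higher and 1 lower, where 20.8% of all genes lay. DESeq2 called 4 of the 39, Acsl4, Fabp3 and Fabp4 as higher and Oxct1 as lower, against a background of 7.85%. Acsl4 alone was called by edgeR with median-of-ratios scaling, beside 1.41% of all genes, and with library totals, beside 1.73%. On log2(FPKM + 1), limma called 0 members and 0.748% of all genes. An unadjusted p under 0.05 by limma was reached by 4 members and by 2994 of the 14973 genes.

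Without Ctrl replicate 1, edgeR called Acsl4 and Cpt1a as higher and Ehhadh and Oxct1 as lower, which is 10.3% of the members against 13.1% of all genes. Without MP replicate 1 it called Oxct1 alone, against a background of 0.361%. The counts over all genes moved with every library, from 1956 without Ctrl replicate 1 and 54 without MP replicate 1 to 3 without Ctrl replicate 2, 1 without either MP replicate 2 or MP replicate 3, and 0 without Ctrl replicate 3. Without Ctrl replicate 1 and MP replicate 1 together, a fit added after the data were seen, 3 members were higher and 8 were lower, or 28.2% against 21.8% of all genes. The shares of members called stayed near those of all genes in the first and last of these fits.

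The median log2 fold change of the 39 members was 0.14, beside -0.03 over all tested genes, and 26 members had a positive and 13 a negative value. That median was -0.08 without MP replicate 1, when 25 of the 39 values were negative. With library totals as the only scaling the median of all genes shifted to 0.12 and that of the members to 0.29, so small positive values depend on the scaling. Fabp5 and Oxct1 marked the ends of the range, at 1.13 and -1.25.

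**Figure D1:**
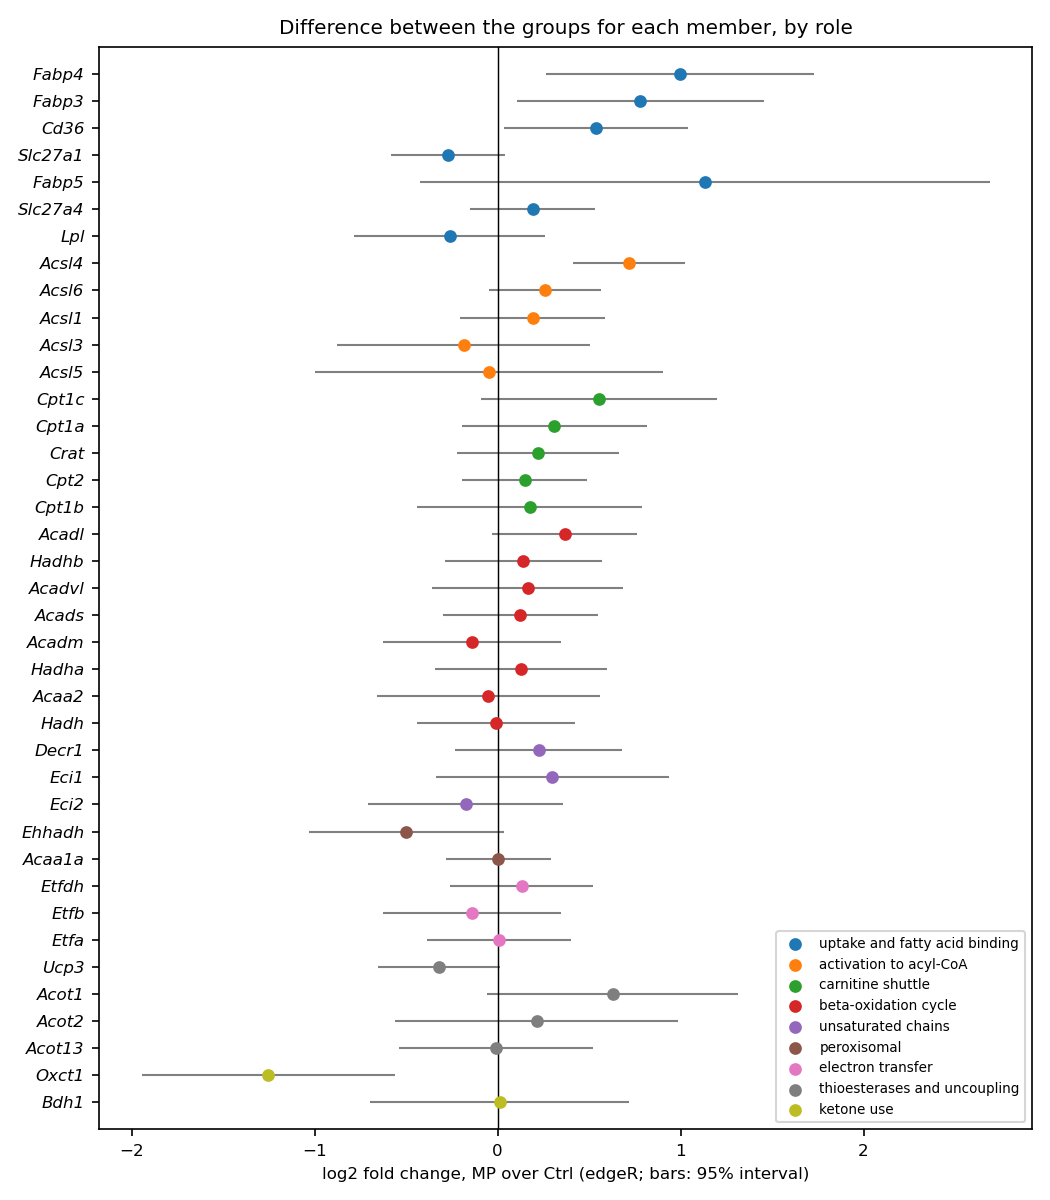
Log2 fold change of each of the 39 members, MP over Ctrl (x axis, edgeR, all 6 libraries), grouped by role; points are estimates and bars 95% intervals. Acsl4, Fabp4, Fabp3 and Cd36 lie to the right of 0 with intervals clear of it, Oxct1 lies to the left at -1.25, and most enzymes of the oxidation cycle lie close to 0.

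Groups that did not overlap were found for 9 of 39 members, 23.1% against 27.4% of all genes. Every MP library lay above every Ctrl library for Fabp4, Fabp3, Cd36, Acsl4, Acsl6 and Acadl, where 13.8% of all genes did so. Every MP library lay below every Ctrl library for Slc27a1, Ucp3 and Oxct1, where 13.6% of all genes did so. Genes of uptake and binding stood on both sides.

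**Figure D2:**
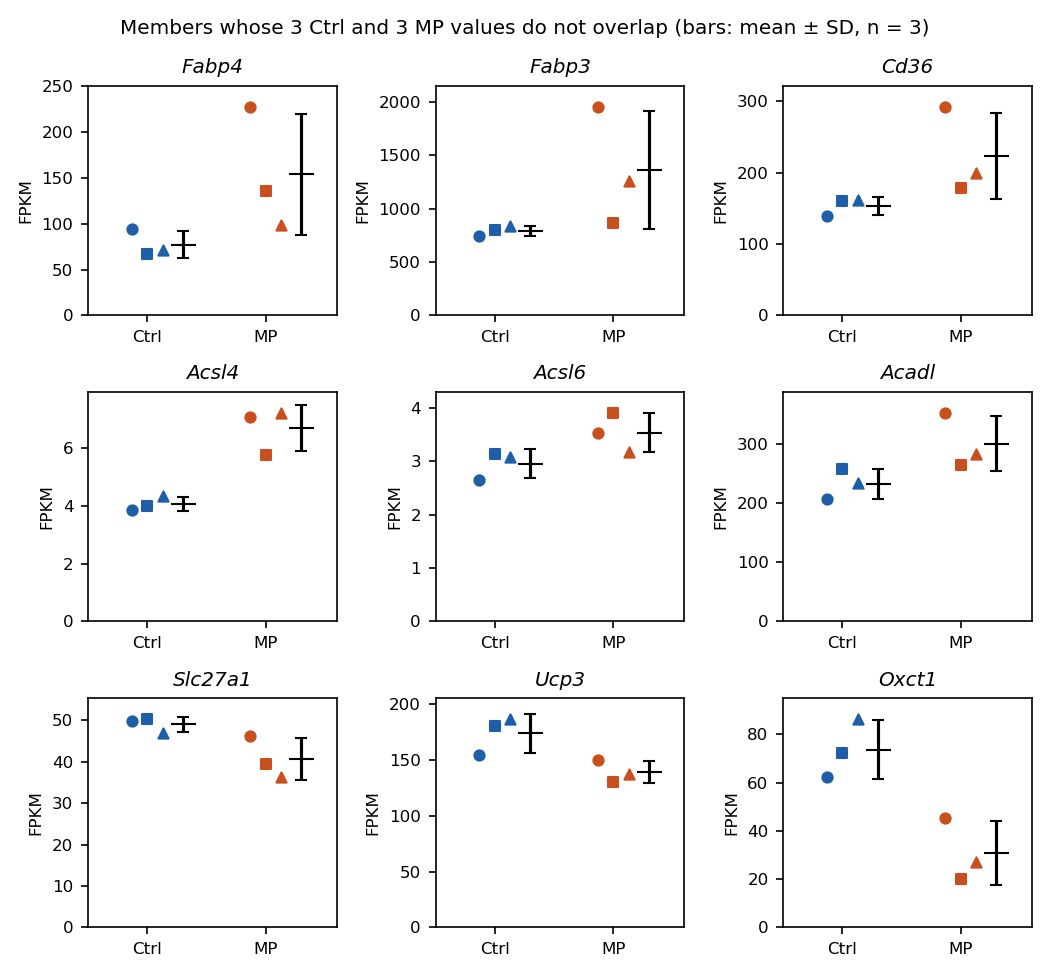
FPKM in each library (y axis, from 0) for the 9 members whose groups did not overlap; circles, squares and triangles are replicates 1, 2 and 3, and bars are mean ± SD, n = 3. For Fabp4, Fabp3, Cd36 and Acadl the circle of MP replicate 1 lies well above the other libraries, whereas for Acsl4 the MP values lie together between 5.77 and 7.22.

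Promoter sequence is shown for 5 members as examples: Acsl4, Cpt1a and Oxct1, among those that passed the test without Ctrl replicate 1, and Cd36 and Ucp3, among those whose groups did not overlap and which hold the searched half-site. Ehhadh, with 0 half-sites, and Acsl6, with 2 in a single window, meet the same descriptions and are not shown. PPAR factors, the fatty acid receptors that drive many genes of this pathway, bind direct repeats of the half-site AGGTCA spaced by 1 base. Each line gives the bases before a RefSeq start site on GRCm38.p6, 5′ to 3′ on the strand of the gene, 250 bases long except for Oxct1, where 200 bases end before the gene start of the deposited table. For Cd36 the RefSeq start lies inside the deposited gene (chr5:17781690-17888801, minus strand), so its line is not sequence upstream of the deposited gene start. Capitals mark AGGTCA, or its reverse complement TGACCT.
Acsl4, chrX:142390536-142390785, minus strand: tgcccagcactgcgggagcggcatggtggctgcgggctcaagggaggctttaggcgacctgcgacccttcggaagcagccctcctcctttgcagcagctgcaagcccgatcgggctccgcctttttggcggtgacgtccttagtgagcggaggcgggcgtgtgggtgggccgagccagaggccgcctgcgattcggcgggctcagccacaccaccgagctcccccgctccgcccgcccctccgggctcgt
Cpt1a, chr19:3323051-3323300, plus strand: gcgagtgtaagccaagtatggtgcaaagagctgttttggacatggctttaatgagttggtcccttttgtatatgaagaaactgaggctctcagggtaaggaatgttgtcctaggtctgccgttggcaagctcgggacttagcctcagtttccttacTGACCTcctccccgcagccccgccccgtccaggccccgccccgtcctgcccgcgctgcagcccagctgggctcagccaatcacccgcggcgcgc
Cd36, chr5:17835897-17836146, minus strand: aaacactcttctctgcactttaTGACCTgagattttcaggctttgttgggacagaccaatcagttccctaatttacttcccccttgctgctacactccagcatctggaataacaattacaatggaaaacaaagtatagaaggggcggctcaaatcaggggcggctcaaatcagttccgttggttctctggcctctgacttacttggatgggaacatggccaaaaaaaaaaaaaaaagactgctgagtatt
Ucp3, chr7:100472741-100472990, plus strand: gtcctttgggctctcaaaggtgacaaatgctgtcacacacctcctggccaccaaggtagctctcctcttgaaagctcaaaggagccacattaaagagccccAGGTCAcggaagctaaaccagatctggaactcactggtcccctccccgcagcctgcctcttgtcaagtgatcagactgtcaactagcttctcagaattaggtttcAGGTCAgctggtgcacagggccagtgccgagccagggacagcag
Oxct1, chr15:4026178-4026377, plus strand: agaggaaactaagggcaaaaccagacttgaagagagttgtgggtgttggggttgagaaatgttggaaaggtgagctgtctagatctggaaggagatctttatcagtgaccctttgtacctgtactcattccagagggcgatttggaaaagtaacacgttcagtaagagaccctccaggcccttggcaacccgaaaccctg
Acsl4 and Oxct1 hold no capital, Cd36 and Cpt1a hold 1 half-site each on the other strand, and Ucp3 holds 2 on its own strand, starting 149 and 44 bases before the start. RefSeq windows of 300 bases, 250 before and 50 after a start, were matched for 31 of the 39 members by symbol, giving 37 windows. The repeat of AGGTCA with any 1 base between the copies, searched on both strands, was in 0 of the 37 and in 0.0396% of all 32851 windows. The looser repeat of AGGNCA in the same spacing, which includes the first, was in 0 of the 37 and in 0.381% of all windows. The single half-site, a part of both repeats whose search was added after theirs, was in 7 of the 37, 18.9% against 16.3% of all windows, in Acadm, Acadvl, Acsl6, Cd36, Cpt1a, Cpt1c and Ucp3. These are matches of letters in short windows only.

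Among the genes of uptake and binding, Fabp3 and Fabp4 had the smallest p-values. Fabp3 (chr4:130308595-130315463, plus strand, GRCm38) encodes the carrier of heart and skeletal muscle, and it had the highest level of the module. Its FPKM (fragments per kilobase of gene, scaled for library size) was 740, 800 and 837 in Ctrl and 1953, 867 and 1260 in MP. All MP values lay above all Ctrl values, with MP replicate 1 far above the rest and MP replicate 2 only a little above the highest control. The log2 fold change was 0.78 ± 0.29 (SE), with an adjusted p of 0.192 by edgeR and 0.04999 by DESeq2. Without MP replicate 1 it was 0.43, and adjusted p-values over the 15 fits ran from 0.04999 to 0.378. In the annotation used here 29.2% of the 50-base stretches of Fabp3 also occur in its pseudogene Fabp3-ps1, which held 41 to 106 counts, and 19.6% of its exon bases lie opposite other genes, so its level is uncertain.

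Fabp4 (chr3:10204088-10208576, minus strand) encodes a carrier best known from adipocytes and also made by capillary endothelium. Its FPKM was 94.2, 66.6 and 71.0 in Ctrl and 228, 135 and 99.1 in MP. The groups did not overlap, but the lowest MP value was close to the highest control. Its fold change was 0.997 ± 0.31 on the log2 scale, with an adjusted p of 0.146 by edgeR, and adjusted p-values over the 15 fits ran from 0.0114 to 0.351. It was 0.78 and passed the test without Ctrl replicate 1 and MP replicate 1, and it was 0.61 and did not pass without MP replicate 1 alone.

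Markers of the cell types that make Fabp4 were read beside it. All 13 endothelial markers had a positive fold change with a median of 0.45 on the log2 scale, 0 of 13 passing the test. Their sums were 592.5, 463 and 531 CPM in Ctrl and 1008, 578 and 612 CPM in MP. MP replicate 1, the library highest in Fabp4, was also highest in this sum. MP replicate 2, the second highest in Fabp4, lay below Ctrl replicate 1 in it. Adipocyte markers other than Plin4, a gene also active in muscle, summed to 634, 130 and 210 CPM in Ctrl and 141, 561 and 336 CPM in MP. Their highest library was Ctrl replicate 1. With all libraries 4 of the 10 adipocyte markers, Plin4 included, had positive and 6 negative fold changes, and 0 passed. Without Ctrl replicate 1 and MP replicate 1, edgeR called 7 of the 10 as higher and 0 as lower. In that fit 10.5% of all genes were called higher and 11.4% lower. The part of either cell type in the Fabp4 values was not tested. In RNA from whole muscle, more cells of a type and more RNA per cell cannot be told apart.

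Cd36, the fatty acid translocase, had FPKM of 139, 160 and 162 in Ctrl and 292, 178 and 199 in MP. The groups did not overlap, and MP replicate 1 again held the highest value. Its log2 fold change was 0.54 ± 0.22, with an adjusted p of 0.217 by edgeR, and it was 0.31 without MP replicate 1. Cd36 is also made by capillary endothelium, and the endothelial values given for Fabp4 apply here too.

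The transport protein Slc27a1, or FATP1, ran the other way. Its FPKM was 49.8, 50.3 and 46.9 in Ctrl and 46.1, 39.4 and 36.3 in MP, so the groups touched closely without overlapping. EdgeR gave -0.27 ± 0.13 on the log2 scale, an adjusted p of 0.295 and a span of 0.0375 to 0.663 over the 15 fits. Its relative Slc27a4, or FATP4, was much lower, at 2.79 to 3.88 FPKM, with a log2 fold change of 0.19 ± 0.15. Slc27a4 made up 5.62 to 6.06% of the summed FPKM of the pair in Ctrl and 7.55 to 8.11% in MP, a difference for which no test was made.

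Lipoprotein lipase, Lpl, frees fatty acids from circulating triglyceride. Its FPKM ran from 60.1 to 109 over the 6 libraries with overlapping groups, and its log2 fold change was -0.26 ± 0.22. Fabp5, a carrier of skin, macrophages and endothelium, lay between 1.27 and 2.35 FPKM in 5 libraries and at 8.75 in MP replicate 1. Its log2 fold change of 1.13 ± 0.67, the highest of the module, was -0.15 without that library. About 19.6% of its 50-base stretches occur in the pseudogene Gm6166, which held 1 to 5 counts.

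Acsl4 came nearest to the threshold with all libraries. It encodes a long-chain acyl-CoA synthetase that prefers arachidonate and other polyunsaturated acids, and it lies at chrX:142317993-142390535 on the minus strand. Its FPKM was 3.86, 3.98 and 4.35 in Ctrl and 7.09, 5.77 and 7.22 in MP. The MP values lay well clear of the controls, and MP replicate 2 was the closest to them. The log2 fold change was 0.72 ± 0.13 (SE), 1.65-fold in mean FPKM, with an adjusted p of 0.0518 by edgeR. It passed in 5 of the other fits: DESeq2 at 0.000713, median-of-ratios scaling at 0.0496, library totals at 0.0388, without Ctrl replicate 1 at 0.0267, and without Ctrl replicate 1 and MP replicate 1 at 0.0157. The fold change stayed between 0.60 and 0.87 over the 15 fits, and the adjusted p reached 0.210 in one of them.

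The other synthetases differed little between the groups. Acsl6, an isoform known from brain and muscle, had FPKM of 2.65, 3.15 and 3.09 in Ctrl and 3.54, 3.91 and 3.17 in MP. These groups were separate by a narrow margin, and the log2 fold change was 0.26 ± 0.13, with an adjusted p of 0.309 by edgeR. Acsl1, the main isoform of oxidative tissues, supplied 81.6 ± 0.265% (SD, n = 3) of the summed synthetase FPKM in Ctrl and 79.8 ± 2.72% in MP, with a log2 fold change of 0.19 ± 0.17. Acsl4 supplied 6.93 ± 0.340% in Ctrl and 9.85 ± 1.15% in MP, from separate ranges of 6.56 to 7.22% and 8.89 to 11.1%. Acsl3 and Acsl5 lay between 0.689 and 3.21 FPKM with overlapping groups and log2 fold changes of -0.19 ± 0.30 and -0.05 ± 0.41.

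In the carnitine shuttle all 5 members had positive fold changes, from 0.15 to 0.55 on the log2 scale, and 0 of 5 passed with all libraries. Without Ctrl replicate 1 and MP replicate 1, Cpt1b was -0.15, Cpt2 -0.038 and Crat -0.038, and Cpt1b was -0.17 without MP replicate 1 alone. Cpt1a, the liver-type carnitine palmitoyltransferase, had FPKM of 6.25, 3.47 and 4.11 in Ctrl and 6.00, 5.55 and 5.66 in MP. The MP values were tight and lay above Ctrl replicates 2 and 3 but below Ctrl replicate 1. With all libraries the log2 fold change was 0.31 ± 0.22 and the adjusted p 0.446 by edgeR. It was 0.60 without Ctrl replicate 1 and passed at 0.0305 by edgeR, within a span of 0.0200 to 0.764 over the 15 fits. Ctrl replicate 1 is the library with lymphocyte transcripts, and their part in its Cpt1a value was not tested.

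Cpt1c, the neuronal isoform, had FPKM of 0.510, 0.328 and 0.338 in Ctrl and 0.701, 0.545 and 0.489 in MP. Only Ctrl replicate 1 reached into the MP range, and the log2 fold change was 0.55 ± 0.28, with an adjusted p of 0.302 by edgeR. Cpt1b, the muscle isoform, was listed at only 2.62 to 5.32 FPKM, below Cpt1a in every library. That level is uncertain, because 81.4% of its exon bases overlap the readthrough gene Gm44502 on the same strand, which itself held 0 to 1 counts. Cpt1b therefore gives no measure of muscle carnitine palmitoyltransferase here, and its log2 fold change was 0.18 ± 0.26.

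Cpt2, which rebuilds acyl-CoA inside mitochondria, lay between 31.8 and 45.4 FPKM, with a log2 fold change of 0.15 ± 0.15. Crat, the carnitine acetyltransferase that exports acetyl units, lay between 80.5 and 131 FPKM, with 0.22 ± 0.19. Both had their highest value in MP replicate 1.

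The enzymes of the oxidation cycle had overlapping groups except for Acadl, with 0 of 8 passing and log2 fold changes from -0.14 to 0.37. Acadl, the long-chain acyl-CoA dehydrogenase, had FPKM of 207, 258 and 234 in Ctrl and 353, 265 and 284 in MP. Its groups were separate, although MP replicate 2 was only just above Ctrl replicate 2. EdgeR gave a log2 fold change of 0.37 ± 0.17 and an adjusted p of 0.269, and it was 0.24 without MP replicate 1.

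Hadhb, the beta subunit of the trifunctional protein, had FPKM of 48.8, 55.9 and 54.4 in Ctrl and 72.4, 46.0 and 57.0 in MP. Its MP values spanned the controls on both sides, and the log2 fold change was 0.14 ± 0.18, with an adjusted p of 0.696 by edgeR. The pseudogene Gm13910 shares 61.5% of its 50-base stretches and held 1607 to 2924 counts, so the level is uncertain. Its partner subunit Hadha ran from 49.9 to 79.7 FPKM with a log2 fold change of 0.13 ± 0.20.

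Medium-chain dehydrogenase, Acadm, had FPKM of 82.4, 94.7 and 89.3 in Ctrl and 107, 65.1 and 69.4 in MP. MP replicate 1 was the highest and the other MP libraries the lowest of the 6. With all libraries its log2 fold change was -0.14 ± 0.21 and its adjusted p 0.733 by edgeR. It was -0.44 without Ctrl replicate 1 and MP replicate 1 and passed at 0.0165 by edgeR, within a span of 0.0165 to 0.993 over the 15 fits.

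The thiolase Acaa2, which ends each round of the cycle, followed the same order. Its FPKM was 113, 120 and 114 in Ctrl and 164, 81.1 and 89.4 in MP. Here too the controls were tight and lay inside the MP range. Its log2 fold change was -0.05 ± 0.26, with an adjusted p of 0.935 by edgeR, and -0.44 at 0.0167 by edgeR without Ctrl replicate 1 and MP replicate 1 (span 0.0167 to 0.977 over the 15 fits).

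The very long-chain and short-chain dehydrogenases Acadvl and Acads and the hydroxyacyl dehydrogenase Hadh had log2 fold changes of 0.16 ± 0.22, 0.12 ± 0.18 and -0.01 ± 0.19. Each was highest in MP replicate 1, at 150, 45.2 and 42.7 FPKM. Of the exon bases of Acadvl 42.9% lie opposite Dvl2, and the strand setting of the counting is not given in the sources used here.

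Unsaturated chains need extra enzymes to move or remove double bonds. Decr1, the dienoyl-CoA reductase, had FPKM of 36.4, 41.2 and 42.1 in Ctrl and 60.6, 36.4 and 42.7 in MP, and its log2 fold change was 0.22 ± 0.20, with an adjusted p of 0.543 by edgeR. Eci1, an enoyl-CoA isomerase, had FPKM of 130, 152 and 137 in Ctrl and 255, 119 and 141 in MP, with 0.30 ± 0.27 and an adjusted p of 0.564 by edgeR. MP replicate 1 lay well above the controls in both, and without it the values were -0.0032 and -0.095.

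Eci2, a second isomerase, differed from these. Its FPKM was 15.3, 28.4 and 24.2 in Ctrl and 23.4, 17.8 and 18.9 in MP, with Ctrl replicate 1 the lowest of all. With all libraries the change was -0.17 ± 0.23 on the log2 scale, with an adjusted p of 0.696 by edgeR. A fit without Ctrl replicate 1 and MP replicate 1 gave -0.50, which passed at 0.0158 by edgeR, within a span of 0.0158 to 0.991 over the 15 fits.

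Of the peroxisomal pair, Ehhadh encodes the bifunctional enzyme of peroxisomal oxidation. Its FPKM was 6.00, 8.91 and 11.3 in Ctrl and 6.42, 6.72 and 5.43 in MP. The MP values were tight and lay below Ctrl replicates 2 and 3, whereas Ctrl replicate 1 lay within their range. EdgeR gave a log2 fold change of -0.50 ± 0.23 and an adjusted p of 0.264. A fit without Ctrl replicate 1 gave -0.71, which passed at 0.0307 by edgeR, within a span of 0.0191 to 0.589 over the 15 fits. Acaa1a, the peroxisomal thiolase, did not separate, with FPKM of 13.4, 13.9 and 12.4 in Ctrl and 14.9, 12.3 and 12.6 in MP and a log2 fold change of 0.0032 ± 0.12, with an adjusted p of 0.992 by edgeR. The near copy Acaa1b shares 34.0% of its 50-base stretches and held 8 to 49 counts.

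Electron transfer from the dehydrogenases showed overlapping groups throughout. Etfdh, which hands the electrons to ubiquinone, had FPKM of 24.7, 31.4 and 29.3 in Ctrl and 37.5, 26.6 and 29.5 in MP, with a log2 fold change of 0.13 ± 0.17 and an adjusted p of 0.687 by edgeR. Etfb, the beta subunit of the flavoprotein, had FPKM of 15.3, 21.4 and 16.4 in Ctrl and 20.2, 12.9 and 15.1 in MP, with -0.14 ± 0.21 and an adjusted p of 0.736 by edgeR. Neither group was shifted as a whole. The alpha subunit Etfa was listed at 126 to 176 FPKM, with a log2 fold change of 0.0064 ± 0.17. The gap between the subunits is uncertain, since 58.3% of the exon bases of Etfb overlap Gm45233 on the same strand, which held 0 to 3 counts.

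Ucp3, an inner membrane carrier of muscle whose expression follows fatty acid supply, was lower in every MP library. Its FPKM was 154, 180 and 187 in Ctrl and 150, 130 and 138 in MP, and Ctrl replicate 1 and MP replicate 1 nearly met. Its log2 fold change was -0.32 ± 0.14, with an adjusted p of 0.251 by edgeR. Without both of those libraries it was -0.44 and passed at 0.0166 by edgeR, within a span of 0.0166 to 0.513 over the 15 fits.

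Thioesterases free fatty acids from coenzyme A again. Acot1, the cytosolic enzyme, had FPKM of 9.78, 17.8 and 15.6 in Ctrl and 30.6, 15.6 and 20.5 in MP. The groups overlapped, and the log2 fold change was 0.63 ± 0.29, with an adjusted p of 0.273 by edgeR. Acot13, a small thioesterase of mitochondria, had FPKM of 60.2, 83.3 and 78.8 in Ctrl and 99.3, 62.4 and 59.2 in MP, with -0.0071 ± 0.23 and an adjusted p of 0.990 by edgeR. Its value was -0.40 at 0.0261 by edgeR without Ctrl replicate 1 and MP replicate 1 (span 0.0261 to 0.996 over the 15 fits).

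Acot2, the mitochondrial relative of Acot1, ran from 66.0 to 172 FPKM with overlapping groups and a log2 fold change of 0.21 ± 0.33. The 2 genes lie side by side at chr12:84009490-84018371 (Acot1) and chr12:83987861-83993873 (Acot2), both on the plus strand. Their coding sequences in GENCODE M21 are 1257 and 1359 bases long, and 95.3% of 1236 aligned bases are identical. The longest identical run is 273 bases, and the 100 bases before it hold 14 mismatches, shown in capitals because reads of this stretch can tell the genes apart and reads of the run cannot.
Acot1, coding bases 787 to 886: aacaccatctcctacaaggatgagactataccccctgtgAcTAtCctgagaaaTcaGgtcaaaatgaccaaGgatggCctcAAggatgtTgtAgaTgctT
Acot2, coding bases 910 to 1009: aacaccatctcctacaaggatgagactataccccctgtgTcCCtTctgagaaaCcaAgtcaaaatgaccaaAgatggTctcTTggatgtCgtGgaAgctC
Over whole transcripts, 23.7% of the 50-base stretches of Acot1 occur in Acot2 and 24.5% of those of Acot2 in Acot1. Ctrl replicate 1 was the lowest and MP replicate 1 the highest library for both genes. Reads of the shared part can be lost or split between them, so both levels are uncertain.

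Ketone use held the lowest fold change of the module. Oxct1 (chr15:4026383-4155344, plus strand) encodes the enzyme that activates acetoacetate and so commits ketone bodies to oxidation in muscle. Its FPKM was 62.2, 72.3 and 86.4 in Ctrl and 45.5, 20.0 and 26.9 in MP. Every MP library lay below every Ctrl library, with MP replicate 1 the closest to the controls. The mean was 73.6 ± 12.1 in Ctrl and 30.8 ± 13.2 in MP (SD, n = 3), which is 0.419 times the control level. The log2 fold change was -1.25 ± 0.30 (SE), with an adjusted p of 0.0863 by edgeR.

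Oxct1 passed by DESeq2 at 0.000885 and, by edgeR, at 0.0341 without Ctrl replicate 1, at 0.0447 without MP replicate 1 and at 0.000876 without both. The fold change stayed between -1.74 and -1.02 on the log2 scale over the 15 fits, and the adjusted p between 0.000876 and 0.272. Oxct1 is known to be richer in oxidative than in glycolytic fibres, so their markers were read beside it. The 10 slow or oxidative fibre markers summed to 2772, 3032 and 3208 CPM in Ctrl and 3289, 1738 and 2550 CPM in MP. MP replicates 2 and 3, the lowest in Oxct1, were also lowest in this sum. MP replicate 1 went the other way, below every Ctrl library in Oxct1 yet the highest of all libraries in this sum. Myh2 supplied 1762, 1960 and 1706 CPM of it in Ctrl and 2248, 946 and 1306 CPM in MP. Myh2 alone of the 10 had its lowest values in MP replicates 2 and 3, and Tnni1 was highest in MP replicate 3. Of the 10 markers 9 had negative fold changes, the median was -0.23, and 0 of 10 passed. Their part in the Oxct1 values was not tested. The antisense gene BC037032 lies opposite 12.6% of the exon bases of Oxct1 and held 8 to 25 counts.

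Bdh1, which interconverts the main ketone bodies, showed no such difference between its groups. Its FPKM was 4.44, 4.04 and 7.28 in Ctrl and 6.73, 3.40 and 5.72 in MP. The groups overlapped fully, with a log2 fold change of 0.01 ± 0.30 and an adjusted p of 0.989 by edgeR.

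**Figure D3:**
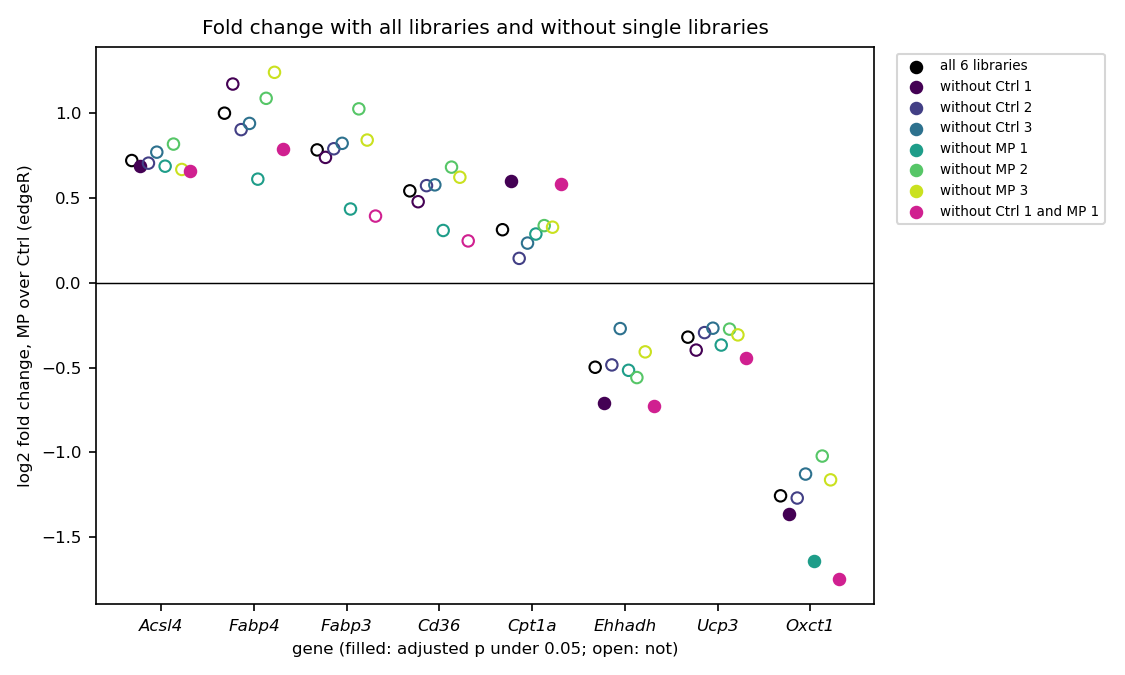
Log2 fold change, MP over Ctrl (y axis, edgeR), of 8 members with all 6 libraries and without the libraries named in the key; filled points have an adjusted p under 0.05. All 8 members keep their side in each fit shown, Oxct1 reaching -1.74 without Ctrl replicate 1 and MP replicate 1. Cpt1a and Ehhadh pass only where Ctrl replicate 1 is left out. Fabp4 passes only where Ctrl replicate 1 and MP replicate 1 are both left out.

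Levels per length spanned more than 3 orders of magnitude and kept a similar order in the 2 groups. Fabp3 was highest, at 792 ± 49.3 FPKM in Ctrl and 1360 ± 550 in MP (SD, n = 3). It was followed in Ctrl by Acadl at 233 ± 25.3, Ucp3 at 174 ± 17.3, Cd36 at 154 ± 12.7, Etfa at 145 ± 17.4 and Eci1 at 140 ± 11.3, of which the last 3 lay within their spread of each other. The lowest were Acsl5 at 1.21 ± 0.749 and Cpt1c at 0.392 ± 0.102 FPKM. Fabp3 and Cd36 of the uptake genes and Acadl of the oxidation cycle were thus among the highest. The uptake genes Fabp5, at 1.84 ± 0.436, and Slc27a4, at 3.00 ± 0.209 FPKM in Ctrl, lay among the lowest, as did the synthetases other than Acsl1.

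**Figure D4:**
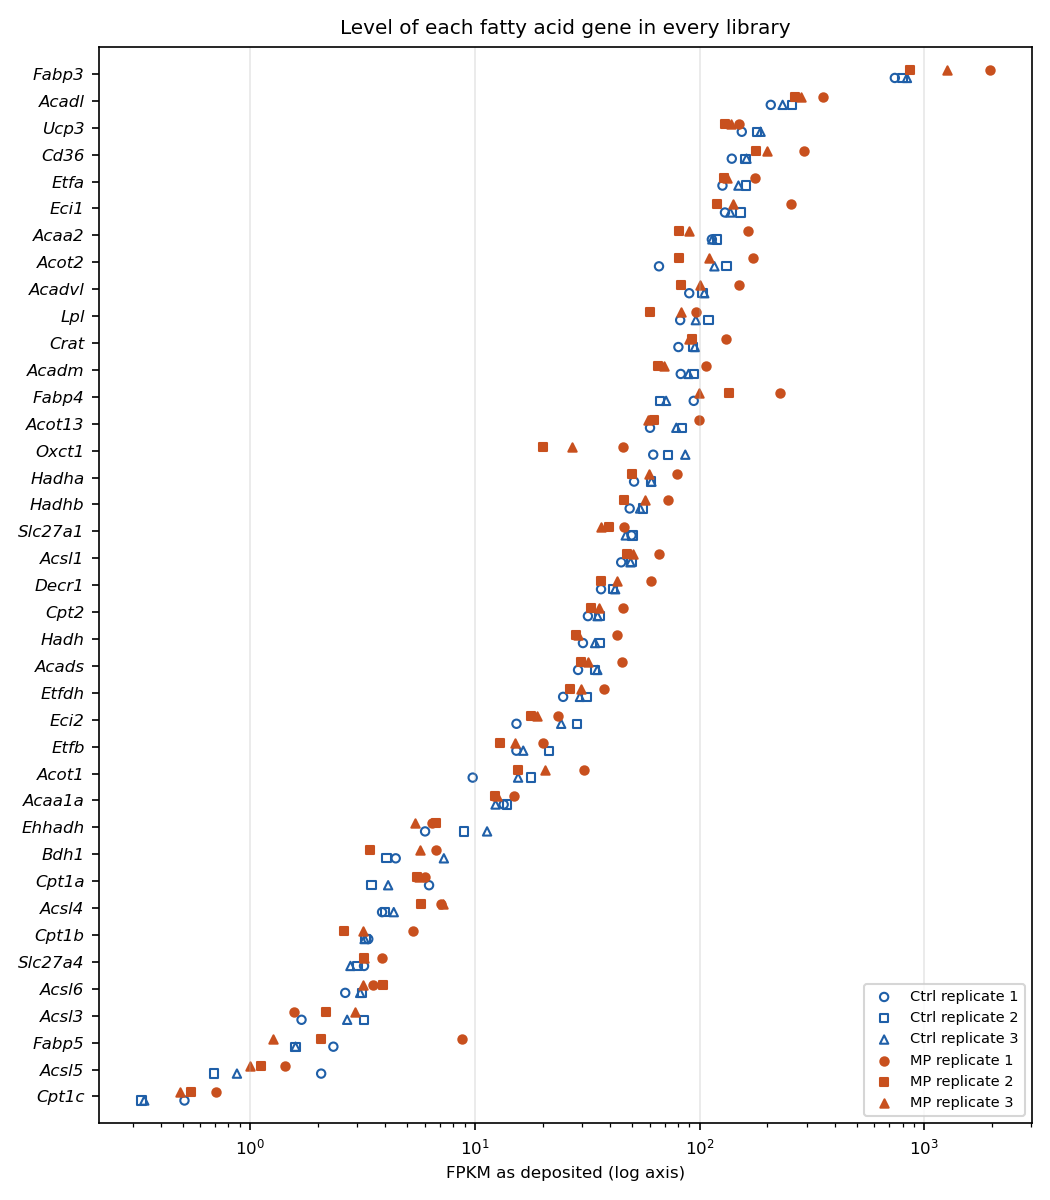
FPKM of each of the 39 members in every library (x axis, log scale), ordered by level; open blue symbols are Ctrl and filled orange symbols MP, with circles, squares and triangles for replicates 1, 2 and 3. Oxct1 shows all orange symbols to the left of the blue ones, Acsl4 shows them to the right, and the orange circle of MP replicate 1 lies furthest right in 26 rows.

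One library stood out across the module. MP replicate 1 held the highest CPM of 26 of the 39, or 66.7%, against 21.1% of all tested genes. MP replicate 2 held the lowest CPM of 15, or 38.5%, against 12.9% of all genes, and Ctrl replicate 1 the lowest of 14, or 35.9%, against 19%. The median deviation of the members from their own mean was 0.40 on the log2 scale in MP replicate 1, -0.18 in both MP replicate 2 and Ctrl replicate 1, and between -0.071 and 0.017 in the other 3 libraries. Over all tested genes these medians lay between -0.015 and 0.0031.

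The excess of MP replicate 1 was seen in members of most roles. Their median deviation there was 0.69 for uptake and binding, 0.29 for activation, 0.44 for the carnitine shuttle, 0.43 for the oxidation cycle, 0.52 for unsaturated chains and 0.30 for electron transfer. The exceptions were the peroxisomal pair at 0.016, and single members such as Acsl3, lowest in that library, and Slc27a1, Ehhadh, Ucp3 and Oxct1. Endothelial markers were also highest in MP replicate 1, whereas its sum of skeletal muscle fibre markers, 108900 CPM, was the lowest of the 6 libraries. The sum of the slow or oxidative fibre markers was highest in MP replicate 1, at 3289 CPM, and lowest in MP replicate 2, at 1738 CPM. Myh2 supplied 2248 CPM of the sum in MP replicate 1. Of these markers only Myh2 and Casq2 were themselves highest there, whereas Myh7, Tnnt1, Tnnc1, Myl2, Myl3 and Atp2a2 were highest in Ctrl replicate 3. The sum of 10 fast glycolytic fibre markers was lowest in MP replicate 1, at 91030 CPM against 101900 to 155500 CPM elsewhere. Of these, Myh4, Tnnt3, Pvalb, Actn3 and Atp2a1 were lowest in that library. Myh1 ran the other way, at 9413 CPM there against 2811 to 4090 CPM elsewhere, and Tnnc2 was also highest there. The part of these in the members' values was not tested.

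**Figure D5:**
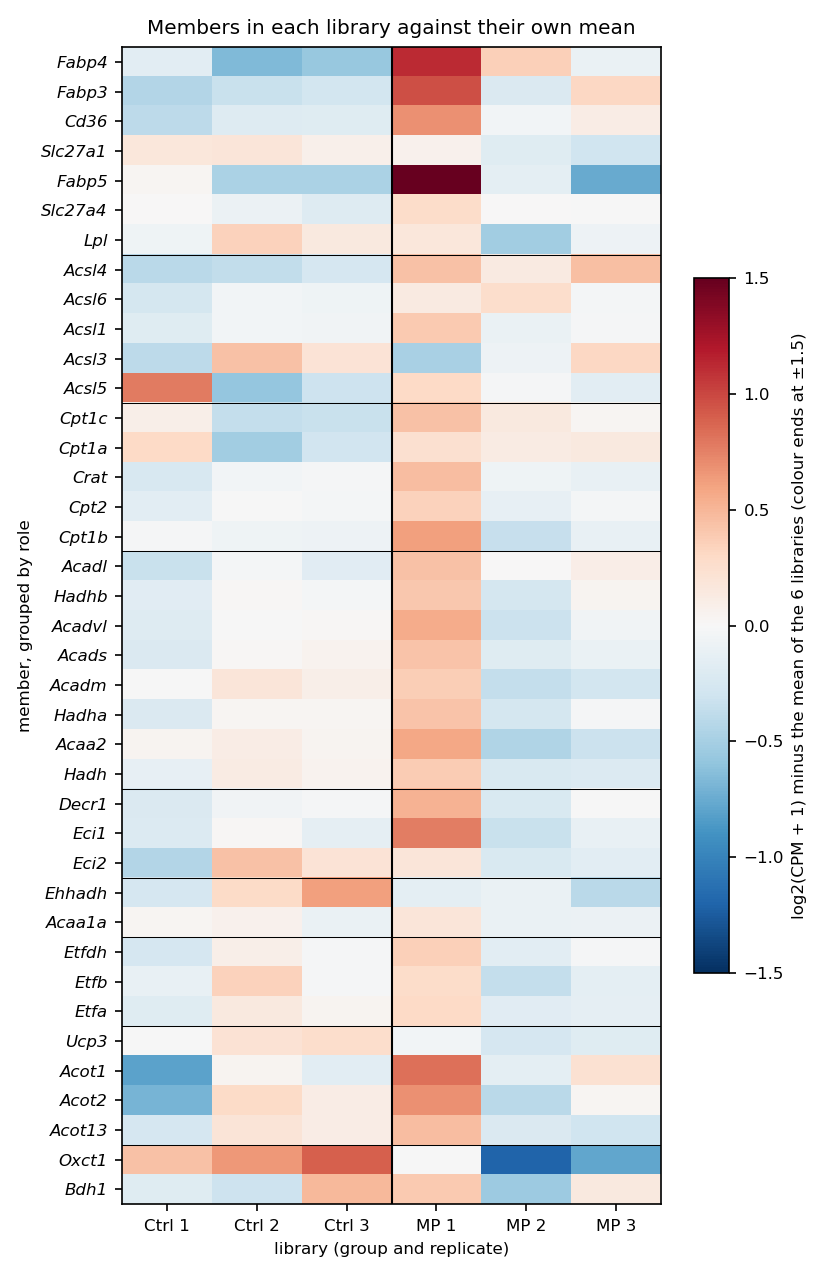
Deviation of each member (rows, grouped by role) in each library (columns) from its own mean over the 6 libraries, in log2(CPM + 1); red is above and blue below that mean, and colours end at ±1.5. The column of MP replicate 1 is red for most rows, the row of Acsl4 turns from blue in Ctrl to red in MP, and the row of Oxct1 is red in Ctrl and blue in MP replicates 2 and 3.

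Other genes of the pathway were read from 5 lists. Malonyl-CoA metabolism held the single gene that passed with all libraries, Acaca, 1 of 16 tested. Acaca encodes the acetyl-CoA carboxylase of the cytosol, which makes the malonyl-CoA that feeds fatty acid synthesis and inhibits carnitine palmitoyltransferase. Its FPKM was 1.20, 0.818 and 0.835 in Ctrl and 3.42, 3.79 and 3.50 in MP. All MP values lay far above the controls, and Acaca rose by 1.91 ± 0.17 on the log2 scale, with an adjusted p of 0.0182 by edgeR. It passed in 10 of the 15 fits and missed the threshold with the replicate block at 0.0781 and without Ctrl replicate 2, Ctrl replicate 3, MP replicate 2 or MP replicate 3, at 0.0598, 0.114, 0.0955 and 0.0793 by edgeR. Acacb, the mitochondrial form more abundant in muscle, was at 59.7 to 89.6 FPKM with a log2 fold change of 0.16 ± 0.18.

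Of the 33 other oxidation enzymes 0 passed, and 13 had positive and 20 negative fold changes with a median of -0.04 on the log2 scale. The 2 with the smallest p-values were Acadsb, the dehydrogenase of short branched chains, at -0.76 ± 0.19, and Dbi, the acyl-CoA binding protein, at 0.64 ± 0.17, with adjusted p-values of 0.0977 and 0.107 by edgeR. Both had groups that did not overlap.

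Of 20 uptake partners listed, 14 were tested and 0 passed. Angptl4, a secreted inhibitor of lipoprotein lipase that fatty acids induce, had FPKM of 17.2, 17.7 and 19.2 in Ctrl and 59.1, 30.6 and 32.6 in MP. The groups were well apart, with a log2 fold change of 1.18 ± 0.25 and an adjusted p of 0.0755 by edgeR. Mgll, the monoacylglycerol lipase, had a log2 fold change of 0.91 ± 0.27 and an adjusted p of 0.134 by edgeR.

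Of the 24 PPAR and PGC-1 regulators 0 passed, with 16 positive and 8 negative values. Pprc1, a relative of PGC-1, had a log2 fold change of -0.71 ± 0.14 and Ncoa1, a steroid receptor coactivator, 0.51 ± 0.11, with adjusted p-values of 0.0603 and 0.0799 by edgeR. Of 22 PPAR targets known from muscle, 8 of them also members of the module, 20 were tested and 0 passed. Angptl4 led this list too, followed by Plin2, a lipid droplet coat protein, at 0.46 ± 0.17 with an adjusted p of 0.192 by edgeR. The median over the 20 was 0.15 on the log2 scale, and it was 0.11 over the 12 of them that are not members of the module.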

How the data were processed

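RNA was measured in 6 gastrocnemius libraries, grouped and numbered by their titles. The submitters' processing notes name HISAT2 2.0.5, featureCounts 1.5.0-p3 and GRCm38. The strand setting and the release of the annotation were not given in the sources used here. The deposited counts are whole numbers per gene, per the file headers. The FPKM values deposited by the authors equal these counts divided by gene length and a library size. The members and gene lists were chosen with earlier results of these data known.

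Counts were tested with edgeR 4.0.16 (R 4.3.3; TMM, filterByExpr, quasi-likelihood test, two-sided, Benjamini-Hochberg over 14973 genes, threshold 0.05). SE is the fold change divided by the root of its F statistic, and other errors are SDs over 3 libraries. Whether each library is a separate animal is not in the labels, and p-values reflect only the spread among these libraries. Floors cover counting error only. The steps were tested on simulated data. There 5 of 50 genes changed 1.5-fold and 29 of 50 changed 2-fold were recovered. Of 139 calls 14 were false, a larger share than the threshold of 0.05. The simulated libraries of a group were drawn alike, with none that stood apart, so these shares need not hold for the real libraries.

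Alternatives were DESeq2 1.42.0, limma 3.58.1 on log2 of the deposited FPKM with pseudocounts of 1 and 0.1, other scalings, no filter, a replicate block and fits without each library. Full values are given for the 2 members of each role with the smallest p, for members called without a library that stands apart, and for the genes of each pathway list that passed or the 2 with the smallest p. Cd36, Slc27a4, Fabp5, Acsl1, Acot2 and Acacb were given further values after these were seen. Overlaps and shared 50-base stretches were counted in GENCODE M21, whose gene start and end match the deposited ones for 36 of the 39 members (not for Acaa2, Cpt1a and Eci1).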

Additional observations from a re-analysis of the deposited data

How the results depend on the processing

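Counts over all genes and over the members moved with the tool and the libraries, and the cause was not tested. Over all genes, 118 were higher and 76 lower with all libraries, against 595 and 480 by DESeq2, 205 and 54 with library totals, 84 and 40 without a filter, 68 and 44 with limma on log2(FPKM + 1), and 77 and 44 on log2(FPKM + 0.1). Median-of-ratios scaling gave 132 and 79. Leaving out 1 library gave 0 to 910 higher and 0 to 1046 lower, and leaving out Ctrl replicate 1 and MP replicate 1 together, an alternative added after the data were seen, gave 1569 and 1700. Of the members, 3 were higher and 1 lower by DESeq2, 1 was higher with median-of-ratios scaling and 1 with library totals, 0 to 2 were higher and 0 to 2 lower with 1 library left out, and 3 were higher and 8 lower without both libraries.

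Same-numbered samples did not deviate together. The correlations of their deviations from the group means were 0.0092, -0.14 and 0.18 for numbers 1, 2 and 3, and not every library correlated best with its own number, so the numbers are taken as names. With the replicate number as a block, 2 genes were higher and 3 lower over all genes and 0 members passed.

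Over the 15 fits 23 of the 39 members took both signs, 11 of the 23 given in full and 12 of the other 16 (Acads, Acadvl, Acot2, Acsl3, Acsl5, Cpt1b, Cpt2, Crat, Etfa, Fabp5, Hadh and Hadha), and 0 of the 39 passed with all libraries. With library totals Acaa2 was 0.090, Acadm 0.0092, Acot13 0.15, Eci2 0.0051 and Etfb 0.018. Acot13 was 0.0083 without a filter, and with the block Acaa1a was -0.0011 and Bdh1 -0.00020. Over the fits without 1 library Acaa1a ran from -0.081 to 0.056, Acaa2 from -0.43 to 0.14, Acot13 from -0.28 to 0.13, Bdh1 from -0.19 to 0.32, Decr1 from -0.0032 to 0.37, Eci1 from -0.095 to 0.50, Eci2 from -0.39 to 0.021, Etfb from -0.33 to 0.018, Etfdh from -0.013 to 0.24 and Hadhb from -0.034 to 0.29. Without both libraries Acaa1a was -0.064, Bdh1 -0.29, Decr1 -0.059, Eci1 -0.14, Etfdh -0.10 and Hadhb -0.084. The other 12 of those given in full kept their sign in every fit listed here. With 3 libraries a group, changes of small size can be missed, and Cpt1c and Acsl5 had the lowest FPKM of the members.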

Other observations

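Counts of the pathway lists also moved with the libraries left out. Without Ctrl replicate 1, edgeR called 0 higher and 1 lower of 33 other oxidation enzymes, 2 and 1 of 14 uptake partners, 3 and 4 of 24 PPAR and PGC-1 regulators, 5 and 0 of 20 PPAR targets, and 2 and 0 of 16 malonyl-CoA genes, against 6.08% higher and 6.99% lower over all genes. DESeq2 with all libraries called 1 and 1, 2 and 0, 2 and 1, 2 and 0, and 2 and 0 of the same lists, against 4.34% and 3.5% over all genes. Ppargc1a, the gene of the coactivator PGC-1 alpha that raises oxidative genes, had FPKM of 2.43, 2.36 and 3.85 in Ctrl and 13.0, 5.26 and 5.37 in MP. The groups did not overlap, and the log2 fold change was 1.46 ± 0.39, with an adjusted p of 0.109 by edgeR. Ppargc1a was singled out after its values were seen.

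Markers of further cell types were read with the same fit. All 10 macrophage markers and all 10 fibroblast and progenitor markers had positive fold changes, with medians of 0.33 and 0.38 on the log2 scale, and 0 of either list passed. The macrophage sum ran from 118 to 303 CPM in Ctrl and from 208 to 297 CPM in MP, and the fibroblast and progenitor sum from 1749 to 2748 and from 2879 to 3035 CPM. Of 10 fast glycolytic fibre markers 7 had negative values, with a median of -0.31. Their part in the members' values was not tested.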
